A study of Homo sapiens with 4 samples.

Results

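The genes examined here encode the mitochondrial ribosomal proteins, taken as every gene whose symbol begins with MRPL or MRPS followed by a number and which had at least 1 transcript labelled protein-coding. They numbered 78 of the 13036 genes listed, and the rule used names only, no measured value. Of these, 51 encode proteins of the large subunit and 26 proteins of the small subunit. The remaining gene, MRPS36, encodes a protein now known as a component of the alpha-ketoglutarate dehydrogenase complex rather than of the ribosome. Symbols do not always match the subunit, and MRPS18A and MRPS30 were counted with the large subunit, where their proteins are found.

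RNA had been sequenced from HCCLM3, an established human hepatocellular carcinoma cell line, carrying a short hairpin RNA. The 2 shCtrl libraries carried a control hairpin and the 2 shKIAA1429 libraries a hairpin against KIAA1429, listed as VIRMA, which encodes a scaffold protein of the complex that writes N6-methyladenosine (m6A) on mRNA. The comparison asks how mRNA levels differ when KIAA1429 is depleted. The methods of the study describe lentiviral particles for its hairpins. Nothing says that the 2 libraries of a group came from separate cultures, and p-values therefore measure only the spread between these libraries. Values are FPKM (fragments per transcript length and per total mapped), which are scaled to length and can be compared between genes. A gene's level was the sum of its protein-coding transcripts. Read depth per library is unknown. Differences are given as log2 fold changes (shKIAA1429 over shCtrl) of FPKM + 1, with the standard error (SE) of limma, a linear model fitted to all 11590 genes with at least 1 FPKM in at least 2 libraries.

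The mitochondrial ribosome translates the mRNAs of the mitochondrial genome, all of which encode subunits of the respiratory chain and ATP synthase. Its protein parts are all encoded in the nucleus, made on cytosolic ribosomes and imported, so their genes must be expressed alongside the mitochondrial rRNAs onto which they assemble. Some of the proteins have a counterpart in the bacterial ribosome and others are found only in mitochondria. In liver cells, as in other cells rich in mitochondria, they serve the production of the oxidative phosphorylation complexes.

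The labels were checked first. VIRMA measured 9.02 and 14.1 FPKM in shCtrl replicates 1 and 2, and 5.82 and 8.52 FPKM in shKIAA1429 replicates 1 and 2. This gave 11.6 ± 3.62 FPKM (SD, n = 2) in the controls against 7.17 ± 1.91 FPKM (SD, n = 2). Both knockdown libraries lay below both controls, with a log2 fold change of -0.61 (SE 0.28), and the difference passed no threshold (limma adjusted p = 0.924). It ranged from -0.91 without shCtrl replicate 1 to -0.31 without shCtrl replicate 2. The exact two-sided permutation test returned p = 0.333, and 2 against 2 libraries allow none smaller. Summed FPKM ran from 370253.5 to 390224.4 per library, and mitochondrially encoded transcripts took 9.29% to 10.6% of it. Of 9 hepatocyte markers only SERPINA1 was listed, at 4.42 and 3.34 FPKM in shCtrl and 5.63 and 4.70 FPKM in shKIAA1429. The epithelial keratins KRT8 and KRT18 were abundant and overlapped between the groups. KRT19, of the same list, measured 364 and 350 FPKM in shCtrl and 461 and 458 FPKM in shKIAA1429. In SERPINA1 and KRT19 both knockdown libraries lay above both controls, as they did in 16.7% of all genes. EPCAM and CDH1, also epithelial, were not listed. The 3 endothelial markers were not listed either, nor were PTPRC, CD3E and CD79A of the immune list and COL1A2 of the fibroblast list. CD68 (44.1 to 52.3 FPKM), ACTA2 (47.4 to 53.3 FPKM), COL1A1 (3.54 to 6.76 FPKM) and PDGFRB (3.99 to 5.14 FPKM) of the same lists were listed, and the groups overlapped in each of them.

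The promoters of the members held ETS and YY1 motifs at larger shares than the promoters of other tested genes, a difference that is given as a description and was not tested. RefSeq promoters (GRCh38.p14, 250 bases before to 50 bases after the start) were matched for 69 of the 78 members, and not for MRPL10, MRPL13, MRPL15, MRPL2, MRPL21, MRPL23, MRPL35, MRPS28 and MRPS36. Motifs of factors known to bind genes of mitochondrial function were searched on both strands. The ETS motif CCGGAAG was found in 29 member promoters (42.0%), against 20.9% of the 8814 tested genes with a promoter and 10.7% of all 27305 promoters. The YY1 motif AAGATGGCG was found in 13 member promoters (18.8%), against 4.4% of tested genes and 1.85% of all promoters. For the NRF1 motif GCGCANGCG the members also counted 13 (18.8%), close to the 15.9% of tested genes, while all promoters gave 8.05%. The TATA motif TATAAA was found in 2 member promoters (2.9%), against 5.34% of tested genes and 12% of all. ETS and YY1 can share the letters AAG, but no member had matches to different motifs that overlapped. At least 1 of ETS, NRF1 and YY1 was found in 45 of the 69 promoters, and 2 or more in 10. A match is a description of the sequence and not a site shown to be bound.

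**Figure D1:**
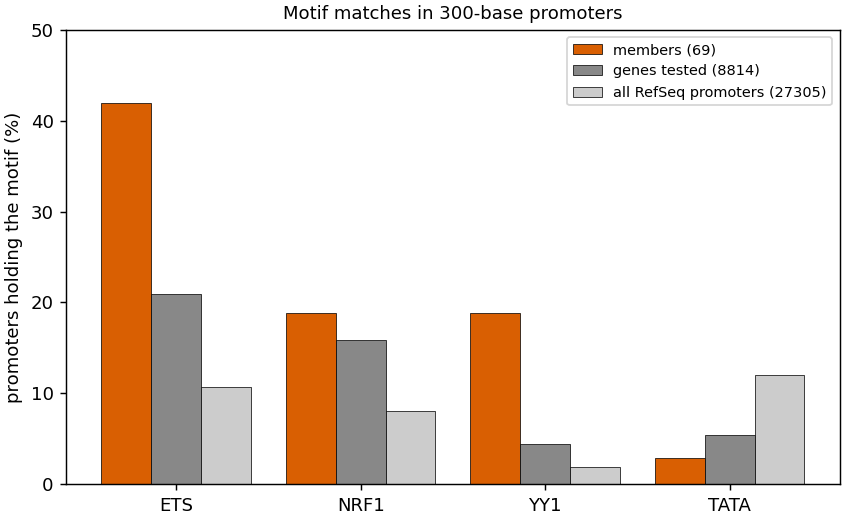
The share of promoters (%, y axis from 0) that hold each of 4 motifs (x axis), for the 69 members with a RefSeq promoter, the 8814 tested genes with one and all 27305 promoters. ETS matches were found in 42.0% of member promoters against 20.9% of tested genes, and YY1 matches in 18.8% against 4.4%.

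The 14 YY1 matches of 13 members lay at positions -223 to 36 from the start. Of the 12 on the strand of the gene, 10 were downstream of the start (83.3%), and among tested genes 253 of 307 first matches on the gene strand were (82.4%), so the members did not stand out in this. To show the most frequent arrangement, windows are printed for the 5 of those 10 members that are described below, while the match of MRPL36, also described below, lies at -36 on the opposite strand. In the windows the capitals mark the motif, read 5′ to 3′ on the strand of the gene, and the first capital lies at base 9 from the start for MRPL46 (chr15:88467362-88467390, minus strand), 24 for MRPL50 (chr9:101398577-101398605, minus), 10 for MRPS18A (chr6:43687764-43687792, minus), 24 for MRPS18B (chr6:30617853-30617881, plus) and 20 for MRPS24 (chr7:43869480-43869508, minus), all on GRCh38.p14.
MRPL46: gggagaacgaAAGATGGCGgcgcccgtaa
MRPL50: gatctcatcgAAGATGGCGgcgcgatctg
MRPS18A: taggtttttgAAGATGGCGgccctcaagg
MRPS18B: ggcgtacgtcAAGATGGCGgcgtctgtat
MRPS24: cgcttggcccAAGATGGCGgcctccgtgt

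Whole promoters are shown for MRPL28 and MRPL37, which hold 1 match each in capitals, and for MRPL55, which had the lowest p of all members and none of these motifs. In MRPL28 (chr16:370489-370788, minus strand) the capitals are an ETS match on the opposite strand, beginning 8 bases after the start. In MRPL37 (chr1:54199917-54200216, plus strand) they are an NRF1 match on the opposite strand, beginning 186 bases before the start. MRPL55 lies at chr1:228109250-228109549 on the minus strand. This window belongs to a single RefSeq start. Most of the difference of MRPL55 stood in transcripts that begin 251 to 562 bases downstream of its most upstream start, as described below. Sequence before those downstream starts was not examined separately.
MRPL28: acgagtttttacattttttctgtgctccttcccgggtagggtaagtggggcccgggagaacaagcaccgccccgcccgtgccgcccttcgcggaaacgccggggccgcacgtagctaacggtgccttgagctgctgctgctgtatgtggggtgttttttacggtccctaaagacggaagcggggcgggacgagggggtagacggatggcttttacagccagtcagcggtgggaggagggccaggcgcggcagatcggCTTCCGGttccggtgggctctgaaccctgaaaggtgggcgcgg
MRPL37: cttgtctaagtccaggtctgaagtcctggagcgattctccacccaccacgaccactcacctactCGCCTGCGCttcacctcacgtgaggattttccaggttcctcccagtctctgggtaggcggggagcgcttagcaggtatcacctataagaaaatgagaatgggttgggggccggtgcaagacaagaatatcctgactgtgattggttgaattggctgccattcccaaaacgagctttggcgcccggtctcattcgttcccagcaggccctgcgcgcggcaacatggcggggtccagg
MRPL55: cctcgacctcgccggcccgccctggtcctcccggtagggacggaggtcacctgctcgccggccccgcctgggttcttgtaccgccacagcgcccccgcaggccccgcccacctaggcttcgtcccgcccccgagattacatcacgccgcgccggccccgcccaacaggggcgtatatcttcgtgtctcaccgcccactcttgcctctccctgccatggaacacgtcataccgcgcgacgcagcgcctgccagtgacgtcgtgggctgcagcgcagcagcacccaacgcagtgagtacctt

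The members are spread over 21 chromosomes, with 8 each on chromosomes 1, 2 and 17. A protein-coding gene on the opposite strand started within 1000 bases upstream of 17 members (21.8%), against 1262 of 10776 tested genes (11.7%). The start of a gene was here its outermost annotated boundary, and noncoding genes were not searched. The closest pairs were MRPL49 with FAU (6 bases apart), MRPL27 with EME1 (13 bases) and MRPL21 with IGHMBP2 (28 bases). In 1 pair, MRPS11 and MRPL46, both genes are members, and their starts are 63 bases apart. Member transcripts are short. The most abundant coding transcript had a median length of 1220 bases, against 2910 for tested genes, and 49 of 78 (62.8%) were under 1500 bases, against 19.2%. GGAC, the most common form of the m6A motif, was found at a median of 3.54 per kilobase in members and 3.76 in tested genes, so a member transcript held a median of 5 and a tested gene 11. No GGAC was found in the main transcript of MRPL21 or MRPL49, and the highest density was 14.1 per kilobase in MRPL53.

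All 78 members passed the filter on low values and were tested. In a single library they ran from 1.72 FPKM, for MRPL48 in shCtrl replicate 2, to 183.8 FPKM, for MRPL12 in the same library, and the median member measured 19.2 to 19.5 FPKM in every library. The highest member was MRPL12, the stalk protein that contacts translation factors and has also been found with the mitochondrial RNA polymerase. It measured 152.5 and 183.8 FPKM in shCtrl and 124.5 and 141.0 FPKM in shKIAA1429. MRPL33, a small protein with a bacterial counterpart, was next at 96.4 and 98.8 against 87.1 and 88.8 FPKM. MRPL14 measured 66.4 and 79.1 against 63.2 and 70.6 FPKM, and MRPL37, found only in mitochondria, 57.5 and 73.1 against 63.0 and 66.4 FPKM. In MRPL12 and MRPL33 both knockdown libraries lay below both controls, and in MRPL14 and MRPL37 the groups overlapped. MRPL24, which lies near the exit of the peptide tunnel, measured 64.3 and 62.1 against 81.0 and 65.8 FPKM, with both knockdown libraries above the controls.

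In the small subunit the 5 highest members lay between 40.8 and 70.8 FPKM in every library. MRPS18B measured 70.8 and 52.9 FPKM in shCtrl and 67.7 and 62.1 FPKM in shKIAA1429. MRPS24, the counterpart of bacterial S3 at the mRNA entrance, measured 56.7 and 65.6 against 53.9 and 59.1 FPKM. MRPS34 gave 54.9 and 64.4 against 50.4 and 59.0 FPKM. The groups overlapped in these 3 genes, and so they did in MRPS12 and MRPS15. MRPS12, the protein of the decoding centre, measured 44.3 and 59.9 against 40.8 and 51.7 FPKM. MRPS15 differed little, at 46.7 and 46.3 against 43.3 and 47.8 FPKM. At the low end stood MRPS25 (4.09 and 5.82 against 4.17 and 5.41 FPKM) and, in the large subunit, MRPL50 (2.27 and 2.67 against 1.94 and 2.37 FPKM), and the groups overlapped in both. MRPL45, which anchors the ribosome to the inner membrane at the tunnel exit, measured 29.6 and 29.7 against 30.5 and 27.9 FPKM, a log2 fold change of -0.02 (SE 0.13).

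The 3 paralogs of bacterial S18 sit at different places of the ribosome and differed in level. In the grouping by bacterial counterpart used below, only MRPS18C was counted as having one, and MRPS18A and MRPS18B were counted as having none. MRPS18B had the highest mean. MRPS18A, which is part of the large subunit, measured 56.7 and 61.6 FPKM in shCtrl and 54.5 and 55.4 FPKM in shKIAA1429. MRPS18C, at 6.78 and 8.32 against 6.83 and 7.30 FPKM, was lower than both of the others in every library. MRPS18A and MRPS18B overlapped each other in level across libraries. How the quantification treats reads shared between paralogs is not stated.

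**Figure D2:**
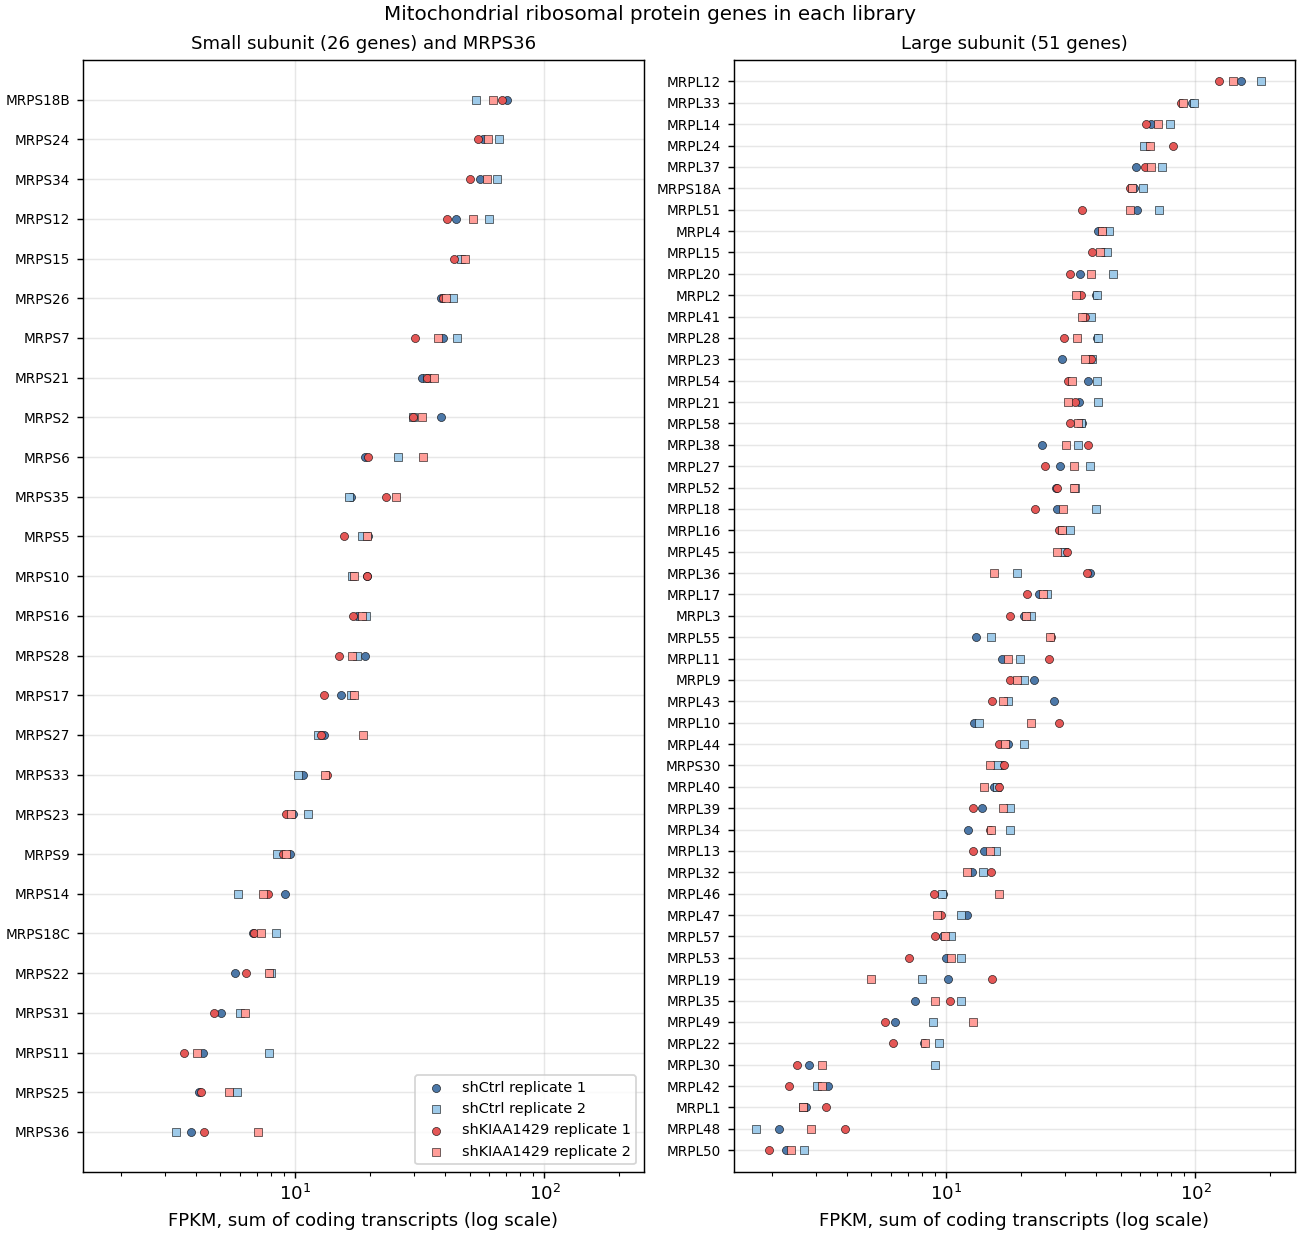
FPKM of each member (x axis, log scale) in each of the 4 libraries, with genes on the y axis ordered by mean level, the small subunit and MRPS36 at left and the large subunit at right. Circles are replicates 1 and squares replicates 2, blue for shCtrl and red for shKIAA1429, and for most genes the 4 points lie close together against the range from 1.72 to 183.8 FPKM.

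Between the groups, no member passed an adjusted p under 0.05 with an absolute log2 fold change over 1, and neither did any gene (0 of 11590, 0.0%). The smallest adjusted p of a member was 0.433 (limma). The members were 24 higher and 54 lower in shKIAA1429, with a median log2 fold change of -0.08, whereas all tested genes were 5568 higher and 6022 lower with a median of -0.01. At an unadjusted p under 0.05, 4 members were higher, where the rate over all genes was 3.04%, and 1 was lower, where it was 2.69%. These counts moved with the library left out. The count of lower members was 3 when scaled without mitochondrial transcripts, where the rate over all genes was 3.46%. With the replicate number as a block 5 members were higher and 6 lower, where the rates over all genes were 5.13% and 5.48%. Both knockdown libraries lay above both controls in 8 members (16.7% of all genes) and below them in 19 (16.7% of all genes). Most differences were small, with quartiles at -0.17 and 0.04 for the members and at -0.14 and 0.13 for all genes.

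The lower side was more frequent in the large subunit, where 38 of 51 members were lower, with a median log2 fold change of -0.10. The small subunit had 16 of 26 lower and a median of -0.04. Non-overlapping members below the controls numbered 15 of 51 in the large and 4 of 26 in the small subunit, where 16.7% of all genes lay below. Those above numbered 4 and 3, where 16.7% of all genes lay above. The 29 large-subunit proteins with a bacterial counterpart had a median of -0.12, and the 22 without one -0.07. In the small subunit these medians were -0.09 for 16 and 0.02 for 10 genes. The small- and large-subunit medians were 0.015 and -0.05 without shKIAA1429 replicate 1, about as far apart as with all libraries. They were -0.007 and -0.035 without shCtrl replicate 2, -0.11 and -0.139 without shCtrl replicate 1, and -0.145 and -0.163 without shKIAA1429 replicate 2. In these latter settings the medians of the subunits lay closer together than with all libraries. The difference between the subunits was not tested.

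The members shifted together in single libraries. The FPKM of all members came to 2081 and 2273 in the shCtrl libraries and to 1998 and 2110 in the shKIAA1429 libraries, or 0.562%, 0.607%, 0.512% and 0.552% of all FPKM. By this sum the groups overlapped, since shKIAA1429 replicate 2 lay above shCtrl replicate 1. The highest of the 4 values was found in shCtrl replicate 2 for 42 members, and the lowest in shKIAA1429 replicate 1 for 41. Over all 11590 tested genes these counts were 3095 and 3573. The median member deviated from its own mean by 0.11 (log2) in the former and by -0.11 in the latter, while shCtrl replicate 1 and shKIAA1429 replicate 2 gave -0.03 and 0.01. Over all tested genes these medians lay between -0.01 and 0.01. The median log2 fold change of the members was -0.02 without shCtrl replicate 2 and -0.03 without shKIAA1429 replicate 1, whereas it was -0.13 without shCtrl replicate 1 and -0.16 without shKIAA1429 replicate 2.

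**Figure D3:**
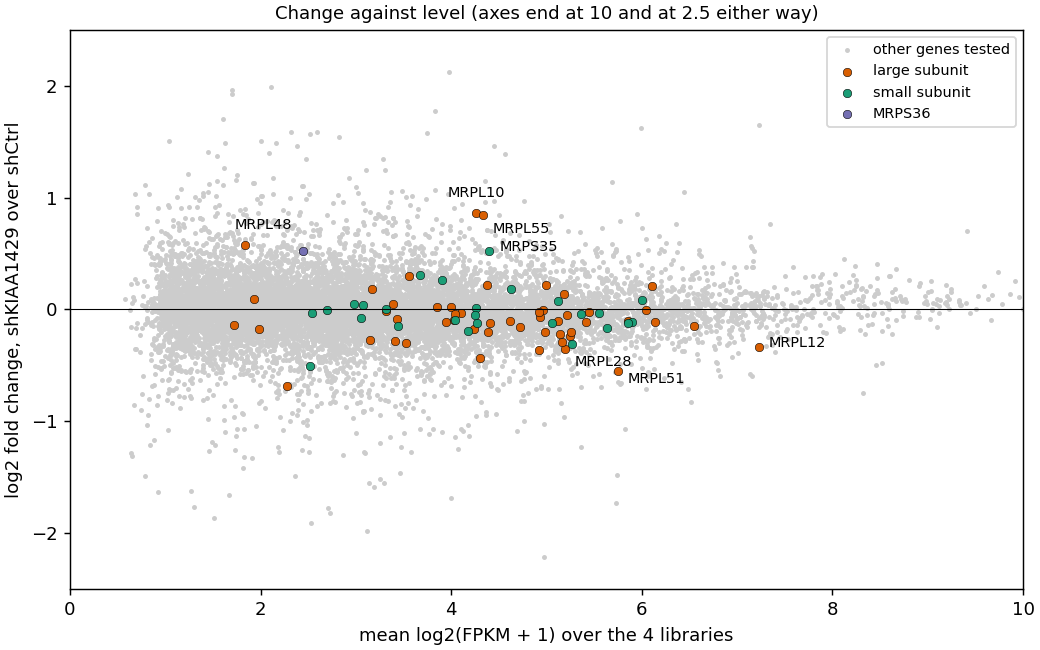
Log2 fold change of shKIAA1429 over shCtrl (y axis) against mean log2(FPKM + 1) over the 4 libraries (x axis) for the genes tested, with members in colour and 18 genes outside the axes. The members lie within the cloud of other genes, MRPL10 (0.86) and MRPL55 (0.85) being the highest of them.

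The members with the largest differences were higher in shKIAA1429. MRPL55, a protein of the large subunit without a bacterial counterpart (chr1:228294380-228297007, GRCh37, minus strand), measured 13.1 and 15.1 FPKM in shCtrl and 26.3 and 25.99 FPKM in shKIAA1429. Its log2 fold change was 0.85 (SE 0.14; limma adjusted p = 0.433). MRPL10 (chr17:45900638-45908900, minus strand), the base on which the MRPL12 stalk is mounted, measured 12.9 and 13.5 against 28.4 and 21.8 FPKM, a log2 fold change of 0.86 (SE 0.18; limma adjusted p = 0.551). The groups were far apart in both genes. MRPL10 and MRPL12 are partners in the stalk, and MRPL12 was lower in both knockdown libraries, with a log2 fold change of -0.34 (SE 0.15; limma adjusted p = 0.905).

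MRPS35, a small-subunit protein without a bacterial counterpart (chr12:27863706-27909228, plus strand), measured 16.7 and 16.4 FPKM in shCtrl and 23.1 and 25.3 FPKM in shKIAA1429. The difference was 0.52 (SE 0.13; limma adjusted p = 0.699) on the log2 scale. MRPL48, one of the lowest members, measured 2.12 and 1.72 against 3.91 and 2.87 FPKM, a log2 fold change of 0.58 (SE 0.20; limma adjusted p = 0.853). In these 2 genes every knockdown library lay above every control, and with MRPL55 and MRPL10 they were the 4 higher members at an unadjusted p under 0.05. MRPS33, a small protein of the small subunit, measured 10.8 and 10.3 against 13.3 and 13.1 FPKM, with replicates closer than in most members and a log2 fold change of 0.31 (SE 0.13). MRPS36, the subunit of the dehydrogenase complex, measured 3.81 and 3.32 against 4.31 and 7.06 FPKM (log2 fold change 0.52, SE 0.25), and most of that difference lay in shKIAA1429 replicate 2.

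The single member lower at an unadjusted p under 0.05 was MRPL28, which has a bacterial counterpart (chr16:417384-420527, minus strand). It measured 40.3 and 40.6 FPKM in shCtrl and 29.7 and 33.3 FPKM in shKIAA1429, for a log2 fold change of -0.35 (SE 0.13; limma adjusted p = 0.863). MRPL51, found only in mitochondria, measured 58.4 and 71.1 against 34.9 and 54.3 FPKM, a larger difference of -0.56 with a larger SE of 0.25. MRPL43 measured 27.03 and 17.7 against 15.2 and 16.8 FPKM (log2 fold change -0.43, SE 0.23). The groups did not overlap in these genes, but the shCtrl replicates of MRPL43 and the shKIAA1429 replicates of MRPL51 were far apart. MRPL18, a counterpart of bacterial L18, measured 27.8 and 40.0 against 22.6 and 29.3 FPKM (-0.36, SE 0.24), and its groups overlapped. Single libraries decided the size of these differences. MRPL51 was at -0.24 without shKIAA1429 replicate 1 and at -0.87 without shKIAA1429 replicate 2, MRPL43 at -0.14 without shCtrl replicate 1 and at -0.72 without shCtrl replicate 2, and MRPL18 at -0.11 without shCtrl replicate 2 and at -0.61 without shCtrl replicate 1. The lowest fitted value of all members, -0.69 (SE 0.48) for MRPL30, came from 9.002 FPKM in shCtrl replicate 2, against 2.80, 2.504 and 3.18 FPKM in shCtrl replicate 1 and shKIAA1429 replicates 1 and 2.

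Members whose start lies close to that of another gene were set beside it. MRPL46 measured 9.65 and 9.58 FPKM in shCtrl and 8.92 and 16.2 FPKM in shKIAA1429, for a log2 fold change of 0.30 (SE 0.29) that was -0.10 without shKIAA1429 replicate 2. Its neighbour MRPS11, across 63 bases, measured 4.25 and 7.84 against 3.56 and 4.04 FPKM, a log2 fold change of -0.51 (SE 0.29). MRPL18 and its neighbour TCP1, a chaperonin subunit 109 bases away, both had lower values, TCP1 at 45.9 and 55.4 against 38.4 and 32.6 FPKM. SARS2, the mitochondrial seryl-tRNA synthetase 181 bases from MRPS12, had a log2 fold change of 0.51 where MRPS12 had -0.16. In MRPL36 the libraries split by replicate number, not by hairpin, at 37.6 and 36.7 FPKM in replicates 1 and 19.2 and 15.6 FPKM in replicates 2. Its neighbour NDUFS6, across 41 bases, did not split so, at 31.3 and 36.0 FPKM in shCtrl and 31.4 and 33.4 FPKM in shKIAA1429. These pairs were chosen for description after their values were seen.

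The gene sums of the 2 members with the largest differences were made of several transcripts, and so were those of MRPL37 and MRPL43. Of the 208 coding transcripts of members, 164 were tested among 24996 transcripts. None passed both thresholds (0.0% of all transcripts), and the smallest adjusted p was 0.149 (limma). At an unadjusted p under 0.05, 9 were higher (3.1% of all transcripts) and 3 were lower (3.18% of all transcripts). In 28 members only 1 coding transcript was listed, and MRPL55 had the most, 12. Assignment of reads among overlapping transcripts is an estimate, and its error is not given in the files.

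All 12 coding transcripts of MRPL55 contain the same coding sequence of 384 bases and differ in the exons before it. Grouped by their start, which was done after the values were seen, 6 began within 23 bases of the most upstream start and 6 began 251 to 562 bases downstream of it. The upstream transcripts summed to 11.5 and 12.2 FPKM in shCtrl and to 13.2 and 12.4 FPKM in shKIAA1429. The downstream ones summed to 1.63 and 2.87 FPKM in shCtrl and to 13.1 and 13.6 FPKM in shKIAA1429. Most of the gene's difference thus stood in transcripts that start downstream, whose share of the gene went from 12.4% and 19% to 49.7% and 52.4%. Within them, MRPL55-208 measured 0.196 and 0.327 against 4.43 and 5.29 FPKM, a log2 fold change of 2.21 (SE 0.21; limma adjusted p = 0.149). It begins inside what is an intron of the upstream transcripts. The upstream ones differed among themselves, with MRPL55-217 at 1.43 and 1.42 against 5.37 and 3.01 FPKM and MRPL55-203 at 2.39 and 2.32 against 0.592 and 0.900 FPKM, so their sum hid differences in both directions.

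In MRPL10 the difference stood in 1 transcript. MRPL10-203 measured 5.45 and 2.30 FPKM in shCtrl and 19.4 and 11.4 FPKM in shKIAA1429, for a log2 fold change of 1.79 (SE 0.46; limma adjusted p = 0.588). The other transcripts of the gene summed to 7.49 and 11.2 against 8.94 and 10.3 FPKM, and these groups overlapped. MRPL10-203 has an exon at chr17:45906505-45906602 (GRCh37) that MRPL10-202 lacks. Its coding sequence is annotated as 813 bases and begins in that exon, against 783 bases in MRPL10-202. The share of MRPL10-203 in the gene was 42.1% and 17.1% in shCtrl and 68.5% and 52.5% in shKIAA1429.

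MRPL37 differed in its transcripts and not in its sum. Its gene level had a log2 fold change of -0.004 (SE 0.16). MRPL37-206 measured 8.07 and 14.5 FPKM in shCtrl, and in shKIAA1429 it was listed at 0 in replicate 1 and at 0.072 FPKM in replicate 2, a log2 fold change of -3.52 (SE 0.34; limma adjusted p = 0.156). It carries a last exon of its own at chr1:54690798-54691137 (GRCh37), 6742 bases past the last exon of MRPL37-202, with 1449 coding bases against 1269. The far end of that exon overlaps the end of SSBP3 on the opposite strand, and whether reads were counted by strand is not stated. The other coding transcripts, MRPL37-202 (37.1 and 18.4 against 40.1 and 43.7 FPKM) and MRPL37-201 (12.3 and 40.2 against 22.8 and 22.6 FPKM), differed between the shCtrl replicates by more than the gene did.

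A transcript of MRPL43 also met the rule for description. MRPL43-203, a transcript of 3 exons, measured 13.0 and 6.36 FPKM in shCtrl and 3.46 and 3.16 FPKM in shKIAA1429 (log2 fold change -1.23, SE 0.38). The rest of the gene summed to 14.1 and 11.3 against 11.7 and 13.6 FPKM, so the lower sum of MRPL43 stood in this transcript.

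**Figure D4:**
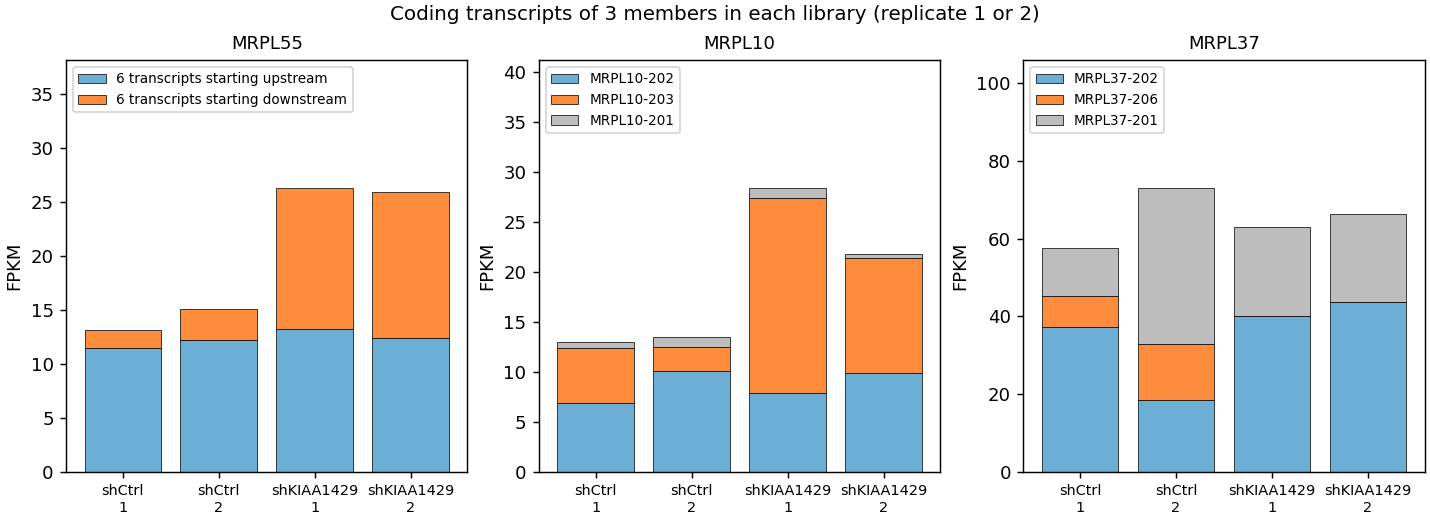
FPKM of coding transcripts (y axis, from 0, stacked) in each library (x axis) for MRPL55, MRPL10 and MRPL37. The downstream transcripts of MRPL55 (orange, 1.63 and 2.87 against 13.1 and 13.6 FPKM) and MRPL10-203 (orange) are larger in shKIAA1429, and MRPL37-206 (orange) reaches 8.07 and 14.5 FPKM in shCtrl and at most 0.072 FPKM in shKIAA1429.

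Transcripts of the member genes that are labelled noncoding were kept out of the sums, and some of them bear on members named above. MRPS18B-207 measured 0.424 and 22.6 FPKM in shCtrl and 0.573 and 0.388 FPKM in shKIAA1429, so it stood high in the library where the coding sum of MRPS18B was lowest. With all transcripts summed, MRPS18B had a log2 fold change of -0.17 in place of 0.08. For MRPL18 the sum of all transcripts gave -0.21 in place of -0.36, with MRPL18-204 at 4.35 and 0.413 FPKM in shCtrl against 4.69 and 4.85 FPKM in shKIAA1429.

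The rest of the mitochondrial translation system was described by lists. The 5 mitoribosomal proteins with other symbols, DAP3, PTCD3, CHCHD1, GADD45GIP1 and AURKAIP1, were all lower, with a median log2 fold change of -0.07, and none passed a threshold. CHCHD1 had the largest difference, at 21.3 and 25.98 against 19.2 and 19.98 FPKM (-0.25, SE 0.16). Of 31 tested factors of mitoribosome assembly and rRNA processing, 10 were higher and 21 lower (median -0.05). At an unadjusted p under 0.05, 2 were lower, where the rate over all genes was 2.69%. These were MTG2, a GTPase of large-subunit assembly (-0.55, SE 0.19), and MPV17L2, an inner membrane protein that binds the large subunit. MPV17L2 measured 6.53 and 9.40 FPKM in shCtrl and 3.34 and 2.08 FPKM in shKIAA1429, for a log2 fold change of -1.27 (SE 0.26; limma adjusted p = 0.551). The highest of the list was MTERF4, which works with an rRNA methyltransferase, at 0.41 (SE 0.44). The median of the list was 0.029 without shCtrl replicate 2 and 0.007 without shKIAA1429 replicate 1. Of 14 translation factors, 2 were higher and 12 lower (median -0.12), from MTIF2, the initiation factor, at -0.23 to TSFM, the elongation factor, at 0.16. The 6 genes of mitochondrial transcription had 3 on each side, with a median of 0.01 that was -0.041 without shKIAA1429 replicate 2 and -0.019 when scaled without mitochondrial transcripts.

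The mRNAs that mitoribosomes translate were mostly on the higher side, by an amount that depended on the library left out. Of the 13 mitochondrially encoded protein-coding genes, 12 were higher and 1 lower, with a median log2 fold change of 0.12. Both knockdown libraries lay above both controls in 6 of the 13 and below them in 0, against 16.7% of all genes each way. At an unadjusted p under 0.05, 1 was higher, MT-CO3, where the rate over all genes was 3.04%. MT-CO3, a subunit of cytochrome c oxidase, measured 5148 and 5372 FPKM in shCtrl and 6446 and 5942 FPKM in shKIAA1429 (0.23, SE 0.08; limma adjusted p = 0.836). The median of these mRNAs was 0.03 without shKIAA1429 replicate 1 and 0.232 without shKIAA1429 replicate 2, and mitochondrially encoded transcripts took 10.6% of the FPKM in the former library, against 9.34% in the latter and 9.44% and 9.29% in shCtrl. Rescaled to the same sum without mitochondrially encoded transcripts, the members had a median log2 fold change of -0.12 and all tested genes one of -0.05. The mitochondrial rRNAs were not analysed here. Cytosolic ribosomal proteins, a set of like size that serves the other ribosome of the cell, had 70 of 82 genes higher and a median of 0.12. Both knockdown libraries lay above both controls in 35 of the 82 and below them in 1, against 16.7% of all genes each way. The median of this list was 0.047 without shKIAA1429 replicate 1. The difference between these lists and the members was not tested.

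**Figure D5:**
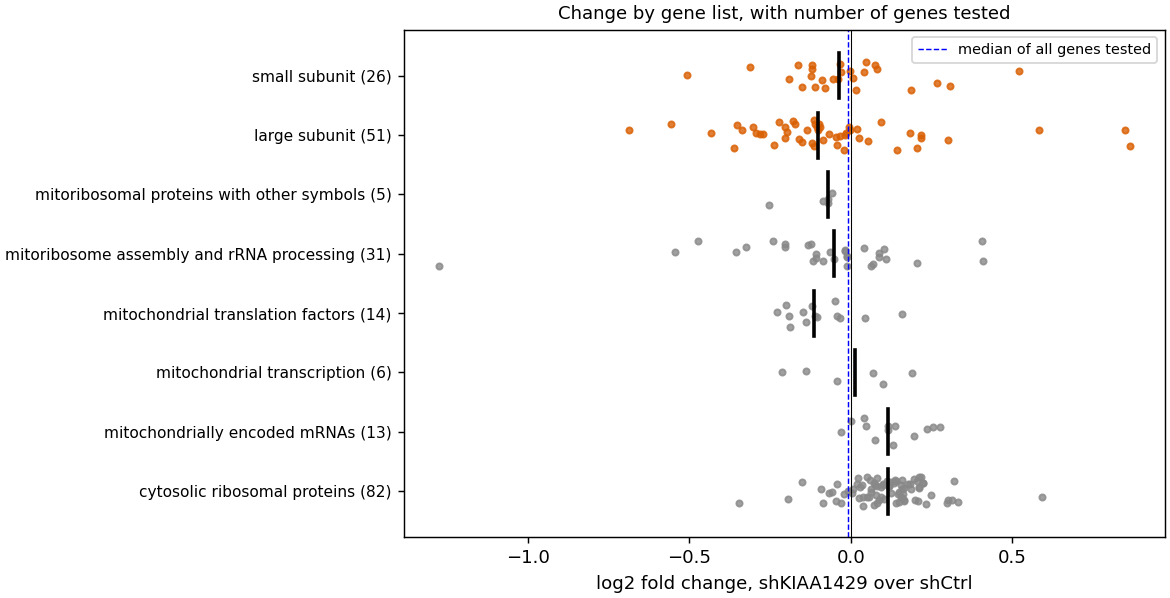
Log2 fold change of shKIAA1429 over shCtrl (x axis) for the genes of each list (rows, number tested in brackets), with a black bar at each median and a dashed line at the median of all genes tested; height within a row carries no value. The medians of the large subunit (-0.10) and of the translation factors (-0.12) lie left of the dashed line, and those of mitochondrially encoded mRNAs and cytosolic ribosomal proteins (0.12 each) right of it.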

How the data were processed

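In HCCLM3 cells, 2 shCtrl and 2 shKIAA1429 libraries were measured by RNA-seq, with group and replicate number taken from the sample titles. Per the methods of the study, reads were aligned with TopHat and counted with HTSeq for DESeq, and the submitters' processing notes name Bowtie2 2.1.0 and hg19. The deposited values are another unit, FPKM for each transcript per the file headers, and the tool by which the authors made them is not given in the sources used here. Depth is unknown, so no counting interval is given. Each listed transcript exceeded 0.5 FPKM in at least 1 library (lowest maximum 0.504). FPKM depends on the total mapped, so abundant RNAs shift all other values. Positions are GRCh37, and exons are from GENCODE 44 lifted to GRCh37.

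The study's count test could not be used on FPKM. Its thresholds and its design without covariates were kept: protein-coding rows were summed per gene (all rows where none is coding), genes with at least 1 FPKM in at least 2 libraries were kept, and log2(FPKM + 1) was fitted in limma 3.58.1 under R 4.3.3 (lmFit, then eBayes with a mean-variance trend, two-sided tests, 2.73 prior degrees of freedom), with Benjamini-Hochberg adjustment over all genes tested. Transcripts were fitted likewise. The script was tested on simulated data. Python 3.11.15 and matplotlib 3.10.9 were used for the rest.

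Members and lists were chosen with earlier results of these data known. Members were named if among the 5 highest of a subunit or its lowest, among the 5 largest rises or falls with a mean of at least 5 FPKM, at an unadjusted p under 0.05, or for a known role (MRPS36, MRPL12, MRPS12, MRPL45 and the MRPS18 paralogs). Named transcripts had an unadjusted p under 0.05 and a mean of at least 5 FPKM. A transcript that met this rule is not reported here. Of the other lists at most the largest rise and fall were named. MRPL30, MRPL36, MRPS11, MRPL55-203, MRPL55-208, MRPL55-217, MRPS18B-207, MRPL18-204, MT-CO3, MTG2, NDUFS6, SARS2 and TCP1 were chosen after their values were seen. Alternatives were upper quartile scaling, scaling without mitochondrial transcripts, no filter, a filter in every library, a pseudocount of 0.1, the replicate block, leaving out each library, all rows of a gene and a robust variance.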

Additional observations from a re-analysis of the deposited data

Results flagged for a closer look

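Noncoding transcripts of the member genes took no part in the comparisons above. Of 42 such transcripts 20 had a mean of at least 1 FPKM, and 4 of these lay above both controls in both shKIAA1429 libraries, while 4 lay below. Over all transcripts tested 16.7% lay above and 16.8% below, so neither count stands far from the rate. No test was run. Below were MRPL38-202, MRPL40-203, MRPS6-202 and MRPS27-209, none over 4.23 FPKM in a library. MRPL20-202 measured 9.98 and 4.04 FPKM in shCtrl and 15.3 and 11.9 FPKM in shKIAA1429, a knockdown mean of 13.6 FPKM. MRPL40-202 measured 5.69 and 5.84 against 6.13 and 7.06 FPKM, a knockdown mean of 6.60 FPKM. MRPL18-204 measured 4.35 and 0.413 against 4.69 and 4.85 FPKM (knockdown mean 4.77 FPKM), and MRPL49-202 2.65 and 0.012 against 4.18 and 4.205 FPKM (knockdown mean 4.19 FPKM). In the latter pair shCtrl replicate 1 lay nearer to the knockdown libraries than to shCtrl replicate 2.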

How the results depend on the processing

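No member and no member transcript passed both thresholds under any of the 12 alternatives. The median log2 fold change of the members stayed below 0 in all of them, from -0.16 to -0.02 without single libraries and from -0.12 to -0.06 otherwise. Of 26 named members 17 kept their direction throughout, among them MRPL55 (0.76 to 0.94 without single libraries), MRPL10 (0.68 to 1.05), MRPS35 (0.46 to 0.58) and MRPL28 (-0.43 to -0.27). The other 9 turned without shCtrl replicate 2 (MRPL14, MRPL37, MRPS12, MRPS18B, MRPS18C and MRPS25), without shKIAA1429 replicate 1 (MRPL37, MRPS12, MRPS15 and MRPS25) or without shKIAA1429 replicate 2 (MRPL45 and MRPL46), with ranges over the libraries left out of -0.24 to 0.009 for MRPL14, -0.17 to 0.17 for MRPL37, -0.085 to 0.042 for MRPL45, -0.10 to 0.70 for MRPL46, -0.38 to 0.05 for MRPS12, -0.10 to 0.04 for MRPS15, -0.13 to 0.29 for MRPS18B, -0.209 to 0.051 for MRPS18C and -0.24 to 0.18 for MRPS25. MRPL37 also turned with upper quartile scaling (0.016) and MRPS18B with all rows summed (-0.17).

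VIRMA ranged from -0.91 to -0.31 without single libraries. With all libraries, members at an unadjusted p under 0.05 numbered 4 higher and 1 lower, and these counts moved with the library left out. Scaling without mitochondrial transcripts gave 3 lower, where the rate over all genes was 3.46%. The next counts are from leaving out 1 library, with those of all libraries in brackets. Non-overlapping members numbered 13 to 21 higher (8) and 26 to 47 lower (19), counts that are larger because 2 libraries face 1. The share of all genes that did not overlap was not computed with a library left out. These counts therefore do not show whether the members differed from other genes. Member transcripts at an unadjusted p under 0.05 numbered 5 to 10 (12), with 5 without shKIAA1429 replicate 1. Under the other settings they ran from 4, where every library needed at least 1 FPKM and fewer were tested, to 16 with the replicate block. Rates over all transcripts were computed only for the main setting with all libraries. The transcript counts of the alternatives therefore cannot be set against the whole table. The ranges of medians were -0.145 to 0.015 for the small and -0.16 to -0.04 for the large subunit, -0.158 to -0.047 for mitoribosomal proteins with other symbols, -0.155 to 0.029 for assembly factors, -0.14 to -0.045 for translation factors, -0.041 to 0.076 for mitochondrial transcription, 0.03 to 0.23 for mitochondrially encoded mRNAs and 0.047 to 0.176 for cytosolic ribosomal proteins.

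With the replicate number as a block, 5 members were higher and 6 lower at an unadjusted p under 0.05, while genes so called rose from 664 to 1229 of 11590 over the whole table. Samples of the same number deviated together (correlation 0.298 over all genes, 0.398 over members), but with 2 pairs and no label behind them the numbers were not taken as a pairing. With 2 libraries a group and unknown depth, small differences such as those of most members could not be told from the spread.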
